A study of Mus musculus with 3 samples.

Results

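The 10 genes described here encode contactins (Cntn1, Cntn2, Cntn3, Cntn4, Cntn5 and Cntn6) and contactin-associated proteins (Cntnap1, Cntnap2, Cntnap4 and Cntnap5a), and they were chosen by gene symbol from the 32532 genes listed in the count files. The tissue was the cortex-amygdala transition zone, where ventral cortex borders the amygdala, of adult, untreated control mice of the line Lypd1-TRAP OI82. These mice carry EGFP fused to the ribosomal protein L10a, written Lypd1-EGFP-L10a in the labels, so the tag follows the cells in which the Lypd1 transgene is active. Anti-EGFP antibodies pulled down the polysomes of those cells (translating ribosome affinity purification, TRAP), and 3 libraries of the bound RNA were sequenced, called replicates 1, 2 and 3. The series has this 1 group, and no unpurified RNA was analysed here. The values are therefore levels in the bound RNA, and say nothing of enrichment. The labels do not say whether a library held 1 mouse or several, so p-values and SDs measure the spread between libraries, which may be technical. A lower value can mean fewer cells with a transcript or less of it per cell, and these cannot be told apart.

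Contactins are cell adhesion molecules of the immunoglobulin superfamily that are held to the membrane by a lipid anchor, and contactin-associated proteins, also called Caspr proteins, are transmembrane relatives of neurexins. The best-known pairs sit along myelinated axons. Contactin-1 and Caspr form the axonal side of the paranodal junction next to the node of Ranvier, where they meet glial neurofascin, and contactin-2 and Caspr2 hold Kv1 potassium channels in the neighbouring juxtaparanode. The other members are known from neurite outgrowth, synapse formation and axon targeting in the brain.

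Levels are in CPM, a gene's count scaled to 1000000 counts assigned to genes in its library, and, where genes are compared with each other, in CPM per kb of annotated exon. The libraries held 18526251, 24690301 and 8668527 assigned counts in replicates 1, 2 and 3. Each member had between 115 and 5171 counts in a library, and the half-width of the 95% Wilson interval was between 2.73% and 18.4% of the level. These intervals cover counting error only. Malat1, a nuclear non-coding RNA, took 34476, 14400 and 82537 CPM in replicates 1, 2 and 3, a 5.73-fold range. The defining markers of neurons were present, with the synaptic gene Snap25 at 7606, 13127 and 6317 CPM, and the gene of the line, Lypd1, measured 232, 601 and 272 CPM.

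All 10 members reached 1 CPM in every library, the threshold for calling a gene detected, against 39.3% of all listed genes. A pair of genes stood above the rest. Cntn1 and Cntnap1, the genes of the paranodal contactin and its Caspr partner, lay at the 94.5th and 90.6th percentile of detected genes by mean CPM. Cntn5, Cntn6 and Cntnap4 lay lowest, between the 29.0th and 29.3rd percentile.

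**Figure D1:**
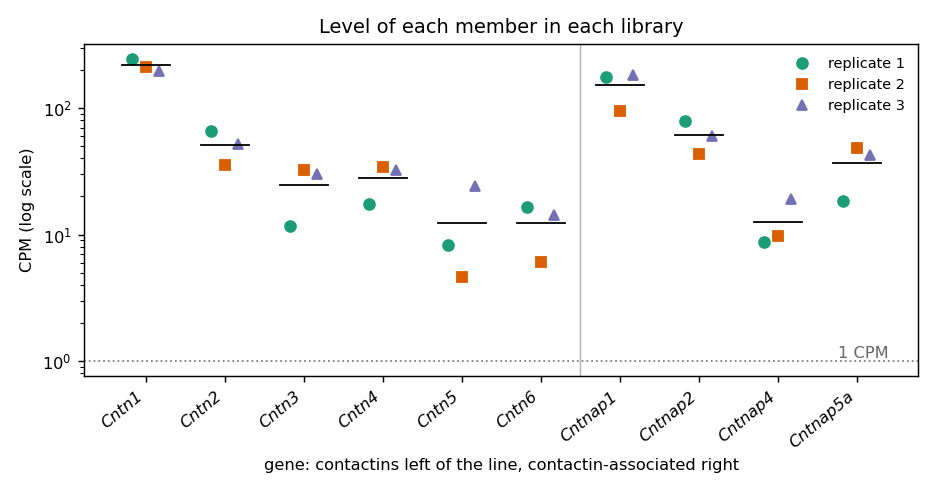
CPM of the 10 members on a log axis, with 1 point per library, a bar at the mean of 3 libraries and a dotted line at 1 CPM. Cntn1 and Cntnap1 lie above the other members of their families in each library, and the 3 libraries of Cntn5 are the farthest apart, between 4.66 and 24.1 CPM.

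Promoter sequences of 4 members are shown because these annotated start regions differ widely in CG content. RefSeq promoters, 250 bases before to 50 bases after an annotated start in GRCm38.p6, were found for 7 of the 10 members. The regions printed are those of Cntn1 (chr15:92050915-92051214, plus strand), the contactin with the highest level, of Cntn3 (chr6:102464618-102464917, minus strand) and Cntn5 (chr9:10904726-10905025, minus strand), which hold the fewest and the most CG dinucleotides among these entries, and of Cntnap2 (chr6:45059811-45060110, plus strand). CG dinucleotides are in capitals, and each sequence runs 5′ to 3′ on the strand of its gene. The Cntn3 region belongs to an internal start, 108.4 kb downstream of the gene's 5′ end in the GENCODE annotation, whereas the printed starts of Cntn1 and Cntn5 are at that end and that of Cntnap2 is 0.704 kb from it.
Cntn1: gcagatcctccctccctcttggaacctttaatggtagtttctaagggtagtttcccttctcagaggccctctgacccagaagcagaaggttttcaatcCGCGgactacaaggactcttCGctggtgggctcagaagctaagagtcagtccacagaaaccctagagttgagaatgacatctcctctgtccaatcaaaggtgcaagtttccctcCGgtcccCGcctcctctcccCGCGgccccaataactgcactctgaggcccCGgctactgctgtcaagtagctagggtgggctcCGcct
Cntn3: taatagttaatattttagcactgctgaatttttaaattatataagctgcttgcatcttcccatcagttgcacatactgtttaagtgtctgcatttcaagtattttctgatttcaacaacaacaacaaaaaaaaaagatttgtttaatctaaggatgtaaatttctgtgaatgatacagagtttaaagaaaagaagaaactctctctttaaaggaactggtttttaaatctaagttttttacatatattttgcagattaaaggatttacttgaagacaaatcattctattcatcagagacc
Cntn5: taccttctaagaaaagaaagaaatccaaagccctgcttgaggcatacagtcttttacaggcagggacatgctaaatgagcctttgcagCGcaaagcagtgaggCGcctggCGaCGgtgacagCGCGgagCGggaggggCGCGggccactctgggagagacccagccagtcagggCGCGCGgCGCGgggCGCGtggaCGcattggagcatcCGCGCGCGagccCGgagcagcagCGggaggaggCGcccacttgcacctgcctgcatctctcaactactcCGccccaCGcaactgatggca
Cntnap2: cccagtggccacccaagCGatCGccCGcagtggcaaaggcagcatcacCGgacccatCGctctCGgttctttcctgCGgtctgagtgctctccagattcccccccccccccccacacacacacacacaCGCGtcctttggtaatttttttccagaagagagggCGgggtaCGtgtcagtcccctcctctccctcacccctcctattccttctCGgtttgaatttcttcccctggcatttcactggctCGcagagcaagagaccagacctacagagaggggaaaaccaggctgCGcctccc
The Cntn3 region holds 0 CG dinucleotides and is 27.7% G and C. The Cntn5 region holds 26, a number that 16.9% of the 32851 promoters of this length reach or pass, and its G and C content is 63.7%. Cntn1 holds 9 and Cntnap2 holds 14, and the median over all promoters is 7. The 7 members have 12 such entries in all, as some have several annotated starts. GGGCGG, searched on both strands, was present in the printed regions of Cntn5 and Cntnap2, in 3 of the 12 entries and in 35.7% of all promoters. TATAAA was in none of the printed regions, in 1 of the 12 entries, an internal start of Cntn1, and in 13.6% of all promoters. The counts do not show which start was used.

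Among the contactins, Cntn1 was the most abundant and the steadiest. Cntn1 encodes contactin-1, and it measured 243, 209 and 197 CPM in replicates 1, 2 and 3, a mean of 217 ± 24.0 CPM (SD, n = 3). The highest library exceeded the lowest 1.24-fold. On the log2(CPM + 1) scale its range over the libraries was 0.30, and 6.48% of the 15336 genes that averaged at least 1 CPM had a smaller one. Those genes cover all levels, so this share was not taken among genes of similar level. Per kb of exon it made up 57.6 ± 7.13% of the summed contactin level (SD, n = 3), with 62.9%, 60.4% and 49.5% in replicates 1, 2 and 3. The gene (ENSMUSG00000055022.14) spans positions 92051165 to 92341967 on the plus strand of chromosome 15 in GRCm38, and its annotated exons cover 9433 bases.

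Cntn2, which encodes contactin-2, also called TAG-1, came next on the CPM scale. It measured 65.9, 35.4 and 51.5 CPM, with a mean of 50.9 ± 15.2 CPM (SD, n = 3), and was lowest in replicate 2. The gene (ENSMUSG00000053024.14) lies on the minus strand of chromosome 1 at 132509427 to 132543256. Cntn2 is also known from oligodendrocytes, so markers of those cells are given here. The summed level of 12 oligodendrocyte markers was 478, 260 and 264 CPM in replicates 1, 2 and 3, and 11 of the 12 were detected. Mbp, the myelin basic protein gene, measured 139, 113 and 74.1 CPM, and no marker of the list was below 1 CPM in every library. Replicate 1 was thus highest for Cntn2 and for the marker sum, but replicates 2 and 3 differed for Cntn2 and hardly for the markers. The part of these cells in the Cntn2 level was not tested.

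Cntn3 and Cntn4 were both lowest in replicate 1. Cntn3, a contactin with neurite outgrowth activity in culture, measured 11.7, 32.1 and 29.9 CPM in replicates 1, 2 and 3 (mean 24.5 ± 11.2 CPM, SD, n = 3). Cntn4, a contactin that binds the amyloid precursor protein and acts in axon targeting, measured 17.3, 33.9 and 32.3 CPM (mean 27.8 ± 9.16 CPM, SD, n = 3). In both genes replicates 2 and 3 lay close together and replicate 1 apart from them. The genes are on chromosome 6 in GRCm38, Cntn3 (ENSMUSG00000030075.10) at 102162655 to 102573101 on the minus strand and Cntn4 (ENSMUSG00000064293.14) at 105677660 to 106699310 on the plus strand.

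Cntn6 lies between them at 104492790 to 104863406 on the plus strand (ENSMUSG00000030092.14), and its values did not follow theirs. Cntn6 encodes contactin-6, also called NB-3, which in mice is known from cerebellar and motor function. It measured 16.6, 6.12 and 14.3 CPM in replicates 1, 2 and 3, with a mean of 12.3 ± 5.50 CPM (SD, n = 3). Its lowest library was replicate 2, which was the highest for Cntn3 and Cntn4. Over all 45 pairs of members, Cntn3 and Cntn6 had the widest spread of their log2 difference between libraries, an SD of 1.44 against a median SD of 0.84.

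Cntn5 had the widest range of the members. It encodes contactin-5, also called NB-2, known in mice from the auditory pathway, and it measured 8.31, 4.66 and 24.1 CPM in replicates 1, 2 and 3 (mean 12.4 ± 10.3 CPM, SD, n = 3). Replicate 3 exceeded replicate 2 5.18-fold, and without replicate 3 the mean was 6.49 CPM. The 95% Wilson intervals were 7.10 to 9.73, 3.88 to 5.59 and 21.1 to 27.6 CPM, so the libraries differed by more than counting error. Malat1 had the same order of libraries, with replicate 3 highest and replicate 2 lowest, and so did the member Cntnap1. Of all tested genes, 39.2% were highest in replicate 3 and 37.8% were lowest in replicate 2. The part of Malat1 in the Cntn5 values was not tested. The gene (ENSMUSG00000039488.15) spans 1244 kb on the minus strand of chromosome 9, from 9660891 to 10904775, and its exons share bases with the antisense gene Gm32710, which the count files do not list. Of the genes tested, which cover all levels, 11.4% had a wider range on the log2(CPM + 1) scale.

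**Figure D2:**
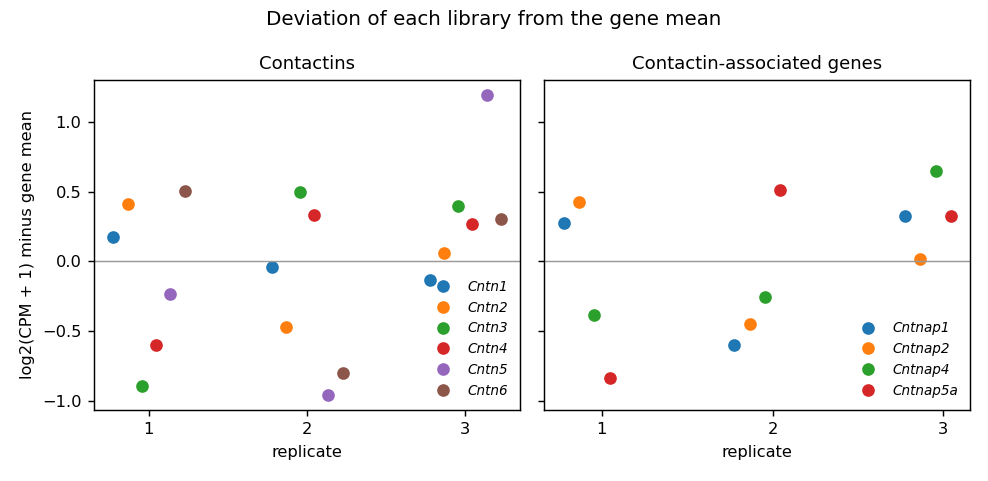
Deviation of each library from the gene's mean on the log2(CPM + 1) scale, contactins on the left and contactin-associated genes on the right, with 1 point per gene and library. Cntn3, Cntn4 and Cntnap5a lie below 0 in replicate 1 and above 0 in replicates 2 and 3. Cntn2, Cntn6, Cntnap1 and Cntnap2 lie below 0 in replicate 2 and above it in replicates 1 and 3.

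Among the contactin-associated genes, Cntnap1 made up most of the level. Cntnap1 encodes Caspr, and it measured 175, 95.1 and 182 CPM in replicates 1, 2 and 3, with a mean of 151 ± 48.3 CPM (SD, n = 3). Replicates 1 and 3 were close and replicate 2 was lower. Per kb it made up 68.5 ± 6.30% of the summed level of the 4 genes (SD, n = 3). Cntnap1 is also a short gene, spanning 20.2 kb on the plus strand of chromosome 11 from 101170523 to 101190724 (ENSMUSG00000017167.6), while 8 of the 10 members span over 100 kb. Its exons share 233 bases with Plekhh3 on the opposite strand. The labels give no strand setting for the counting, so reads in those bases cannot be told apart.

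Cntnap2, which encodes Caspr2, measured 79.5, 42.9 and 59.6 CPM in replicates 1, 2 and 3, with a mean of 60.7 ± 18.3 CPM (SD, n = 3). It is the member with the longest gene, 2245 kb on the plus strand of chromosome 6 from 45059357 to 47304213 (ENSMUSG00000039419.17). It was highest in replicate 1 and lowest in replicate 2, the order also seen in Cntn2 and Cntn6.

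Cntnap4, which encodes a Caspr protein that in mice is known from the terminals of GABAergic interneurons, measured 8.80, 9.72 and 19.03 CPM, with a mean of 12.5 ± 5.66 CPM (SD, n = 3). Replicate 3 was the highest, and replicates 1 and 2 differed little. The summed level of 10 GABAergic and interneuron markers was 830, 507 and 601 CPM in replicates 1, 2 and 3, and Gad2 alone had 478, 318 and 272 CPM of it. The markers did not share 1 order of libraries: 6 of the 10 were highest in replicate 1, 2 in replicate 2 and 2 in replicate 3. Of all tested genes, 31.6%, 29.2% and 39.2% were highest in replicates 1, 2 and 3. The part of interneurons in the Cntnap4 level was not tested. Gad2 and Gad1, the genes of the GABA-synthesizing enzymes, averaged 356 ± 108 and 90.1 ± 32.2 CPM (SD, n = 3). Of that list 9 of 10 markers were detected, and Pvalb was below 1 CPM in every library. The gene (ENSMUSG00000031772.17) lies on the plus strand of chromosome 8 at 112570043 to 112882717, and its exons share bases with the antisense gene Gm45904, which the files do not list.

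Cntnap5a, a Caspr gene of which mice have several closely related copies, measured 18.6, 48.6 and 42.8 CPM in replicates 1, 2 and 3 (mean 36.7 ± 15.9 CPM, SD, n = 3) and was lowest in replicate 1. It lies on the plus strand of chromosome 1 at 115684756 to 116587323 (ENSMUSG00000070695.4). Its relatives Cntnap5b and Cntnap5c measured 24.4 ± 3.64 and 13.6 ± 6.09 CPM (SD, n = 3). Cntnap5c had 6.64, 16.5 and 17.8 CPM, again lowest in replicate 1, whereas Cntnap5b had 27.1, 20.3 and 25.8 CPM and was lowest in replicate 2. How reads were split between these similar genes is uncertain. Cntnap3, the remaining relative, had 0.216, 2.03 and 4.27 CPM, which are 4, 50 and 37 counts.

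Markers of other cell classes were present in each library, and their part in the members' values was not tested. All 10 astrocyte markers were detected, with a summed level of 2299, 1407 and 1422 CPM in replicates 1, 2 and 3, led by Slc1a2 at 845 ± 94.9 and Aldoc at 244 ± 123 CPM (SD, n = 3). Replicate 1 was the highest, as for the oligodendrocyte list. Oligodendrocyte precursor genes were detected for 7 of 7 markers, with a sum between 99.6 and 132 CPM and with Cspg4 and Olig2 at 24.9 ± 14.7 and 19.7 ± 10.4 CPM. Of 8 microglial markers 4 were detected and 2 were below 1 CPM in every library; the sum was between 25.1 and 41.1 CPM, with Cx3cr1 at 19.8, 0.486 and 2.88 CPM and Aif1 at 7.41 ± 2.93 CPM. Of 6 endothelial markers 4 were detected, with a sum between 42.2 and 94.2 CPM and with Slc2a1 and Slco1a4 at 33.1 ± 8.80 and 10.6 ± 6.24 CPM. The neuronal lists were complete: 8 of 8 pan-neuronal markers, with Map2 at 1059.8 ± 45.6 CPM, and 5 of 5 glutamatergic markers, with Camk2a and Slc17a7 at 2756 ± 806 and 224 ± 45.5 CPM, were detected. The nuclear RNAs Meg3 and Snhg11 had the same order of libraries as Malat1, with Meg3 at 22092, 13930 and 46742 CPM and Snhg11 at 5853, 2644 and 10041 CPM.

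The spread of the members between libraries was set against that of all genes. With edgeR's goodness-of-fit test, which asks whether a gene spreads more than genes of its level, 0 of the 10 members had an adjusted p of 0.05 or less (Benjamini-Hochberg over 15336 genes), and 0.209% of all tested genes did. The lowest adjusted p among members was 0.870, for Cntn5. At an unadjusted p of 0.05 or less there were 0 members and 1200 genes, or 7.82% of those tested, and 0 members were among the genes that DESeq2 marked as dispersion outliers. The median range on the log2(CPM + 1) scale was 0.98 over members and 1.03 over all tested genes. In simulated data for 15336 genes, a planted 8-fold change in 1 library was found for 49.1% of raised and 12.8% of lowered genes, so a spread of the size seen in Cntn5 could be missed.

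Across genes, levels were compared per kb of exon. The order of mean CPM per kb was Cntnap1, Cntn1, Cntnap2, Cntn2, Cntn3, Cntnap5a, Cntn4, Cntn5, Cntnap4 and Cntn6. Cntn1 averaged 23.0 ± 2.55 and Cntnap1 25.7 ± 8.23 CPM per kb, and the other 8 members lay between 1.90 and 5.92. The median over all tested genes with an annotated length was 4.71 CPM per kb, so Cntnap1, Cntn1, Cntnap2 and Cntn2 lay above it and the other members below.

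**Figure D3:**
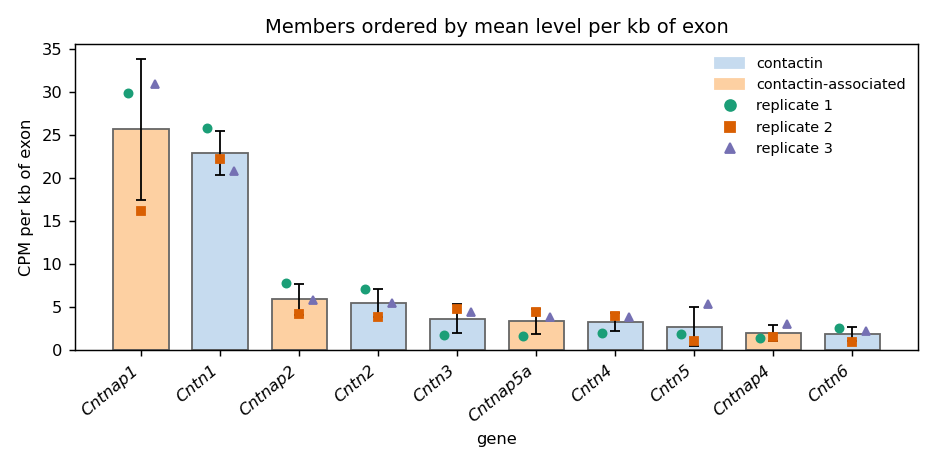
Mean CPM per kb of exon of the members in descending order, with error bars of 1 SD over 3 libraries and 1 point per library, contactins in blue and contactin-associated genes in orange. The bars of Cntnap1 and Cntn1 stand at 25.7 and 23.0, and the other 8 reach at most 5.92.

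Of the 9 steps between neighbours in this order, 3 were larger than their SD between libraries. The order came from the same 3 libraries, so the direction of the steps was largely fixed by the sorting. The step of Cntn1 over Cntnap2 was 1.99 ± 0.36 on the log2 scale of CPM per kb (SD, n = 3), or 3.98-fold, with the same sign in 3 of 3 libraries, and 2.67 ± 0.36 with the longest transcript as the length. The others were Cntn2 minus Cntnap2, at −0.11 ± 0.04, and Cntn3 minus Cntnap5a, at 0.10 ± 0.08, which are small and change sign with the length used. The remaining 6 steps were within their spread, among them Cntn1 minus Cntnap1, at −0.11 ± 0.52. Cntn1 was below Cntnap1 in replicates 1 and 3 and above it in replicate 2. With coding length in place of exon length Cntn1 was the higher, by 1.02 ± 0.52, so the order at the top depends on the length taken.

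Pairs of related members were compared within each library. An exact permutation test, two-sided and by flipping signs, was run on 13 differences in all, the neighbour steps among them. Cntn1 exceeded Cntn2 by 2.11 ± 0.38 on the log2 scale of CPM per kb, or 4.31-fold, in 3 of 3 libraries. Cntnap2 minus Cntnap1 was −2.10 ± 0.27, so Cntnap1 was 4.29-fold higher, in 3 of 3 libraries. With coding length the difference was −1.24 ± 0.27. The paranodal genes were thus above the juxtaparanodal ones in both families, by more than the spread between libraries. Cntnap2 exceeded Cntnap4 by 1.61 ± 0.78 in 3 of 3 libraries, and by 2.29 ± 0.78 with coding length. For the chromosome 6 neighbours, Cntn4 minus Cntn6 was 0.85 ± 1.20, negative in replicate 1 and positive in replicates 2 and 3. The exact permutation test cannot give a p below 0.25 with 3 libraries. It gave 0.25 for 6 of the 13 differences, with an adjusted p of 0.542 for each.

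The ratio of the juxtaparanodal partners was nearly the same in each library. Cntn2 minus Cntnap2 was −0.13, −0.14 and −0.07 on the log2 scale of CPM per kb in replicates 1, 2 and 3, although the libraries spanned 1.86-fold in Cntn2 and 1.85-fold in Cntnap2 on the CPM scale. Its SD of 0.036 was the smallest of the 45 pairs of members, ahead of Cntn3 with Cntnap5a at 0.076. The paranodal partners Cntn1 and Cntnap1 had an SD of 0.52: in replicate 2 Cntnap1 was at its lowest, while Cntn1 lay between its other values. With 3 libraries this is a description of these samples.

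**Figure D4:**
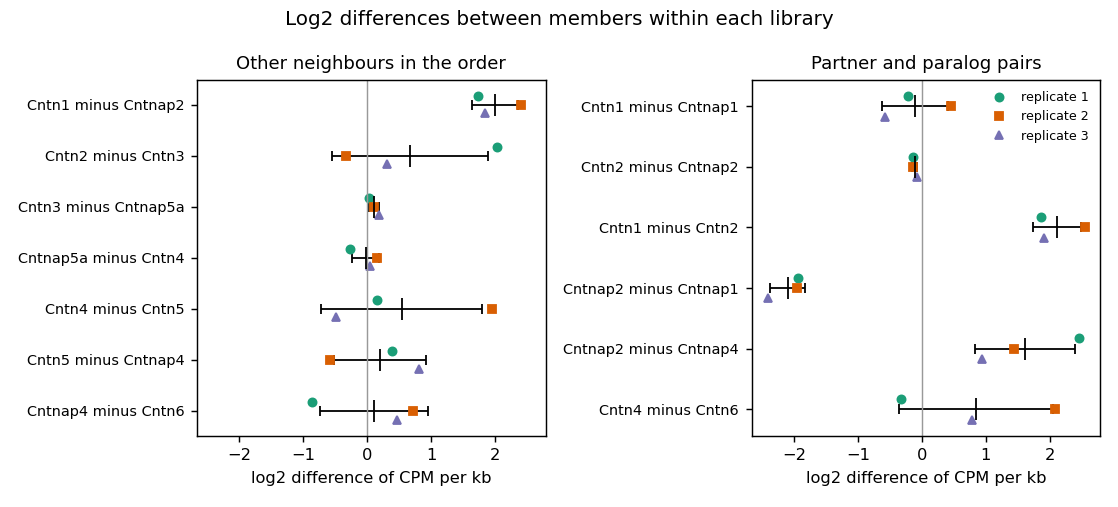
Log2 differences of CPM per kb within each library, with a tick at the mean of 3 libraries, whiskers of 1 SD and 1 point per library; neighbours in the order are on the left, partner and paralog pairs on the right. Cntn2 minus Cntnap2 has its 3 points between −0.14 and −0.07, while Cntn2 minus Cntn3 and Cntn4 minus Cntn5 have points on both sides of 0.

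The partners of these proteins were broadly present. Of 12 genes of the node of Ranvier and axon initial segment all 12 were detected, with a median of 21.0 CPM per kb. The highest per kb was the sodium channel Scn8a, with 41.0, 32.2 and 44.7 CPM per kb in replicates 1, 2 and 3. Ank3, the gene of ankyrin-G, which anchors channels at the node, averaged 32.0 ± 10.5 and the sodium channel Scn2a1 29.5 ± 3.76 CPM per kb (SD, n = 3). All 8 paranode genes were detected, with a median of 29.1 CPM per kb, led by the general cytoskeletal genes Actb, Sptbn1 and Sptan1 at 331 ± 119, 70.2 ± 7.61 and 61.0 ± 11.7 CPM per kb. Actin and spectrins are not particular to paranodes.

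All 14 juxtaparanode genes were detected, with a median of 13.9 CPM per kb. The scaffold gene Dlg2 averaged 35.0 ± 7.40 CPM per kb, and the Kv1 channel genes Kcna1 and Kcna2, whose channels the Caspr2 complex clusters, 33.3 ± 7.73 and 26.9 ± 4.41 (SD, n = 3). All 18 ligands and co-receptors of contactins were detected, with a median of 15.0 CPM per kb. They were led by the amyloid precursor-like genes Aplp1 and Aplp2, at 122 ± 13.6 and 41.1 ± 7.48 CPM per kb, and the adhesion receptor gene Adgrl1 at 38.5 ± 4.60. Of the Caspr scaffold partners all 10 were detected, with a median of 21.5 CPM per kb and with Epb41l1, Mpp2 and Arhgap32 at 57.3 ± 16.0, 33.3 ± 9.97 and 31.8 ± 6.79 CPM per kb.

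The 5 partner medians lay above the median of the contactins, 3.46 CPM per kb, and that of the contactin-associated genes, 4.64 CPM per kb. Of the 60 partner and relative genes 0 had an adjusted p of 0.05 or less in edgeR's goodness-of-fit test, against 0.209% of all tested genes. At an unadjusted p of 0.05 or less there was 1 of the 60, against 7.82% of all tested genes. It was Lgi2, named after its value was seen (adjusted p = 0.616).

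**Figure D5:**
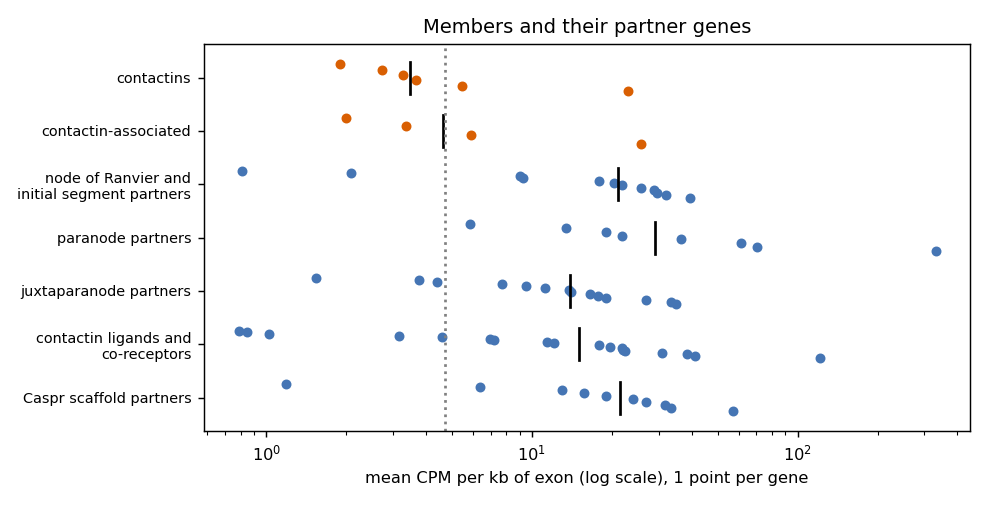
Mean CPM per kb of exon over 3 libraries on a log axis, with 1 point per gene, members in orange and partner genes in blue; black bars mark list medians and the dotted line the median of all tested genes, 4.71. The partner medians lie between 13.9 and 29.1, while the member medians are 3.46 and 4.64.

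Among the 60 partner and relative genes, those with values over the 3 libraries most like a member were found by the largest gap between their deviations on the log2(CPM + 1) scale. For Cntn5 the closest were Sptbn4, the gene of a nodal spectrin, with a largest gap of 0.35, then Gripap1 at 0.51 and Ank3 at 0.70. For Cntnap5a the closest was its relative Cntnap5c, with a largest gap of 0.14, followed by the potassium channel gene Kcnq3 at 0.25 and the receptor phosphatase gene Ptpra at 0.35. With 3 libraries such likeness is a description only.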

How the data were processed

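RNA from anti-EGFP captured polysomes was sequenced in 3 libraries of 1 group. The deposited files give whole-number counts per gene, not normalized. The authors aligned reads with STAR 2.0.0e to mm10 and counted them with HTSeq, per the submitters' processing notes. No source used here names the annotation, strand setting or kit. The 5 summary lines stayed out of all totals. Of all entries, those in no counted feature made up 31.4%, 25.6% and 45.3%, and those aligned to several places 32.7%, 24.3% and 16.5%, in replicates 1, 2 and 3. Unassigned reads lower genes with similar copies.

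From the deposited counts, CPM was computed over all assigned counts. Exon lengths and positions came from GENCODE M21 (GRCm38, the assembly that mm10 names), with lengths for 91.6% of tested genes, all members and all partner genes, but for only 73.4% of listed genes. Of 134 list entries all were matched by symbol, 3 genes through older symbols. Log2 values used CPM + 1, or CPM per kb + 0.01. Both understate differences of low genes. For variation between libraries, edgeR 4.0.16 (R 4.3.3) fitted an intercept-only model with TMM scaling and trended dispersion to genes averaging at least 1 CPM, followed by a goodness-of-fit test with an adjusted p threshold of 0.05. With 1 group no contrast could be fitted. The test was tested on simulated data for 15336 genes. Differences between genes were tested by exact permutation of signs, with p-values adjusted by the Benjamini-Hochberg method. Alternatives changed scaling (with DESeq2 1.42.0 as a second tool), filters, dispersion, length, offset and the libraries included. Python 3.11.15, pandas 2.3.3, SciPy 1.17.1 and matplotlib 3.10.9 were used.

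The members and gene lists were chosen with earlier results of these data known. The text names all members and the 3 genes of each partner list with the highest CPM per kb. It also names the 2 most abundant genes of each cell class list, nuclear RNAs, Lypd1 and all relatives. Named too are the genes closest in pattern to Cntn5 and Cntnap5a, the members of each family with the widest range. Lgi2, Pvalb and Rn45s were named after their values were seen.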

Additional observations from a re-analysis of the deposited data

How the results depend on the processing

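No paired analysis was possible because there is 1 group. Members called as varying stayed at 0 under the 9 alternatives run, and members detected were 9 at 5 CPM, where Cntn5 fell short, and 10 under the others. The count of all genes called was 32 in the main test, 780 with a common dispersion, 21 as DESeq2 dispersion outliers, and 5 to 22 with 1 library left out; without replicates 1 and 2 in turn it was 8 and 5. Of the members' mean levels, 59 of 60 alternatives moved them by less than 1 SD, and Cntn1 was 255 CPM with the 3 most abundant genes out of the totals. Those genes were Rn45s, Malat1 and Meg3, at means of 79938.5, 43804 and 27588 CPM. Leaving them out raised every member, for example Cntnap1 from 151 to 179 CPM and Cntn5 from 12.4 to 15.0 CPM. On CPM without length, the share of Cntnap1 in its family was 56.8% and that of Cntnap2 23.2%.

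Small differences between members changed sign with the length used, and the cause was not tested beyond that choice. Cntn1 minus Cntnap1 (−0.11) was 0.57 without length correction, 0.51 with the longest transcript and 1.02 with coding length, a choice made after seeing the data. Cntn2 minus Cntnap2 (−0.11) was 0.17 with the longest transcript and 0.10 with coding length. Cntn3 minus Cntnap5a (0.10) was −0.60 without length and −0.25 with coding length, and Cntnap5a minus Cntn4 (−0.02) was 0.34 without length. Cntn5 minus Cntnap4 (0.20) was −0.27, −0.053 and −0.012 without length, with the longest transcript and with coding length, and Cntnap4 minus Cntn6 (0.10) was −0.34 and −0.29 with the longest transcript and coding length. With 1 library left out in turn, Cntn1 minus Cntnap1 ranged from −0.39 to 0.12, Cntn2 minus Cntn3 from −0.0041 to 1.17, Cntn4 minus Cntn5 from −0.17 to 1.05, Cntn5 minus Cntnap4 from −0.099 to 0.60, Cntnap4 minus Cntn6 from −0.20 to 0.59 and Cntnap5a minus Cntn4 from −0.11 to 0.097. The protein table that one alternative needed was not used here. The differences of Cntn1 over Cntn2 and over Cntnap2, of Cntnap1 over Cntnap2 and of Cntnap2 over Cntnap4 kept their sign under the 7 alternatives run for each.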
